A study of Homo sapiens with 12 samples.

Results

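The comparison described here sets SW872 cells carrying the TAZ-CAMTA1 (TC) fusion and a hairpin against YEATS2 (shYEATS2) directly against the same cells carrying a hairpin against ZZZ3 (shZZZ3). Its members are 4 of the 12 libraries of the series, 2 for each hairpin, and they were chosen by their titles alone. SW872 is a human liposarcoma line with adherent, mesenchymal cells. RNA was sequenced from it after expression of TC or of a second fusion, YAP-TFE3 (YT), and each line also had a control with a non-targeting hairpin (shNT). By the study's methods the fusion lines were pools selected with G418, not clones, and the hairpin lines were stable, with their selection stated only for hairpins against another gene. All 6 groups therefore carried a fusion and a hairpin, and none was an untreated cell. The labels do not say which of the study's hairpins was used. The study calls its SW872 replicates biological duplicates and states for its sequencing in general that replicates came from separate transductions, without saying so for the hairpin lines. The labels say neither, and the p-values measure the spread between these libraries.

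ATAC is a histone acetyltransferase complex built around KAT2A or KAT2B and a second acetyltransferase, KAT14. YEATS2 is its reader of acylated histone tails through a YEATS domain, and ZZZ3 carries a zinc finger that binds the histone H3 tail. TAZ-CAMTA1 joins the TEAD-binding part of TAZ to the activating part of CAMTA1, and it is the fusion that defines most epithelioid haemangioendotheliomas. The direct contrast asks which genes tell the knock-down of one ATAC subunit from that of the other in cells given the same fusion. The level of the fusion was not measured. In what follows every log2 fold change is the shYEATS2 level minus the shZZZ3 level unless another is named. Positive values stand for genes higher with shYEATS2.

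The study's screen listed 5 hairpins for each gene, and their target sites are shown because the sequenced knock-downs rest on sites of this kind. The 21 bases of each site are written 5′ to 3′ as DNA, and the capitals mark positions 14 to 20, which face bases 2 to 8 (the seed) of a guide strand that starts opposite the last base.
YEATS2 target 1: cgtcagagttcaaGTTCATTt
YEATS2 target 2: cctaactacaaacAGCAAGAa
YEATS2 target 3: ccagtcagaaatcTGTTCTAt
YEATS2 target 4: gcgagctacgaacAATGCTAa
YEATS2 target 5: ataacagcaatatGGATATAg
ZZZ3 target 1: tcaaagaacttggTCATAAAt
ZZZ3 target 2: ttcccgatctactCGTGTTAc
ZZZ3 target 3: cgcatcctgaagaAATCTCTt
ZZZ3 target 4: gcatcagatgacgAAAGTATt
ZZZ3 target 5: gacgacagcacccTCTTAATa

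Each of the 10 sites matched its own gene exactly in the GENCODE transcripts (GRCh38), and 0 other genes held the whole site. The YEATS2 sites lay on the plus strand of chromosome 3, in coding exon 8 (target 1, chr3:183736763-183736783), exon 17 (target 2, chr3:183773706-183773726), across exons 17 and 18 (target 4, chr3:183773775-183775915) and in exon 5 (target 5, chr3:183722063-183722083), while target 3 lay in the 3′ UTR (exon 31, chr3:183811777-183811797). The ZZZ3 sites lay on the minus strand of chromosome 1, in coding exon 5 (target 2, chr1:77633326-77633346, and target 3, chr1:77633234-77633254), in exon 12 (target 5, chr1:77576187-77576207) and across exons 12 and 13 (target 4, chr1:77568452-77576073), while target 1 lay in the 3′ UTR (exon 15, chr1:77565309-77565329).

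The libraries held 28038851 and 19206236 counts (shYEATS2) and 25066218 and 18654191 counts (shZZZ3), in the order replicate 1, replicate 2 that is kept below. The shZZZ3 pair was the tighter one. Of 13258 genes averaging 50 counts or more, 26 lay more than 2-fold apart between its libraries, against 692 in the shYEATS2 pair. The pairs of TC shNT and YT shZZZ3 differed with the GC content of genes (r across these genes of 0.79 and 0.70), against 0.28 and 0.23 in the shYEATS2 and shZZZ3 pairs of TC. All 12 mesenchymal markers had counts in the 4 libraries, with a summed level of 3613 to 4335 CPM (counts per 1000000 counts of a library, after TMM scaling). The 8 blood markers summed to 0.934 to 1.39 CPM, and PTPRC, the leukocyte marker, was at 0 counts in each library. These are bulk libraries, in which fewer cells of a kind and less RNA in each cell cannot be told apart.

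The hairpin targets were read first. YEATS2 (ENSG00000163872) stood at 45.5 and 35.1 CPM with shYEATS2, at 127 and 135 CPM with shZZZ3, and at 113 and 123 CPM with shNT. Both shYEATS2 libraries lay below the other 4, and the log2 fold change was -1.69 (SE 0.18, edgeR adjusted p = 0.00112). ZZZ3 (ENSG00000036549) stood at 21.9 and 22.7 CPM with shZZZ3 and at 35.8 and 47.3 CPM with shYEATS2. Both shZZZ3 libraries lay below both shYEATS2 libraries, but the difference of 0.89 (SE 0.42, edgeR adjusted p = 0.528) did not pass the threshold. It passed in 4 of 11 other settings, among them the GC correction (0.86, edgeR adjusted p = 0.0445), and in none of the 4 fits that each left out 1 of these 4 libraries. The control pair held 25.6 and 60.4 CPM of ZZZ3, further apart from each other than the libraries of either knock-down. For ZZZ3, shZZZ3 minus shNT gave -0.94 (SE 0.42, edgeR adjusted p = 0.450). The study reported ZZZ3 knock-down in SW872 cells with TAZ-CAMTA1 by western blot, which measures protein and not RNA.

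Of 13 ATAC subunits tested, YEATS2 was the 1 called, by edgeR and by DESeq2, against 1.2% of all 18415 genes tested by edgeR, with ZZZ3 added in the 4 settings above. The acetyltransferase KAT2A stood at 128 and 113 CPM with shYEATS2 and 115 and 118 CPM with shZZZ3 (log2 fold change 0.05, SE 0.23). KAT14, the acetyltransferase found in ATAC and not in the related SAGA complex, stood at 46.8 and 43.3 CPM against 40.9 and 36.1 CPM (0.23, SE 0.19). The libraries of the other named subunits gave log2 fold changes between -0.23 (TADA3, an adaptor of the acetyltransferase module) and 0.21 (MBIP). Of the 12 subunits particular to SAGA, 0 were called by edgeR or DESeq2 and 0 had an unadjusted p under 0.05, with values from -0.25 to 0.23.

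Over all genes, 221 of the 18415 tested were called in the direct contrast at an edgeR adjusted p under 0.05 (1.2%). Of these, 114 (0.619% of all tested) were higher with shYEATS2 and 107 (0.581%) were higher with shZZZ3. The 2 pairs of libraries did not overlap for any of the 221, where 44.7% of all tested genes did not overlap, and 212 differed at least 2-fold. Log2 fold changes ran from 0.88 to 5.26 among genes higher with shYEATS2 and from -0.79 to -6.08 among genes higher with shZZZ3. Protein-coding genes made up 203 of the calls and long non-coding RNAs 13. The median over all tested genes was 0.00, which TMM scaling sets near 0, and 0.04 when libraries were scaled by their totals. Fitted alone, the 4 libraries gave 42 calls, 40 of them among the 221, with 11 higher with shYEATS2 and 31 higher with shZZZ3.

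The calls leaned on single libraries to different degrees. Without shZZZ3 replicate 1 there were 31 calls and without shZZZ3 replicate 2 there were 29, all of them among the 221. Without shYEATS2 replicate 1 there were 400, of which 142 were among the 221, and without shYEATS2 replicate 2 there were 284, of which 136 were. Of the 85 called genes named here, 21 were called whichever of the 4 libraries was left out. They were KRT5, KCNA1, NTRK2, FNDC1, KRT75, GATA3, CSMD2, FAT2, H19, NEFL, ITIH5, TP63, CXCL14, TIMP3 and YEATS2 itself on the shZZZ3 side, and PCSK1, SCTR, SAMD11, NR0B1, LINC02593 and COL3A1 on the shYEATS2 side. The other named calls missed the threshold when at least 1 of the 4 was left out, and in none of them did the direction change. These fits still took the spread from all groups. With only the 4 libraries fitted, NTRK2, GATA3, H19 and COL3A1 of the genes just listed missed the threshold (edgeR adjusted p = 0.070, 0.070, 0.082 and 0.051).

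**Figure D1:**
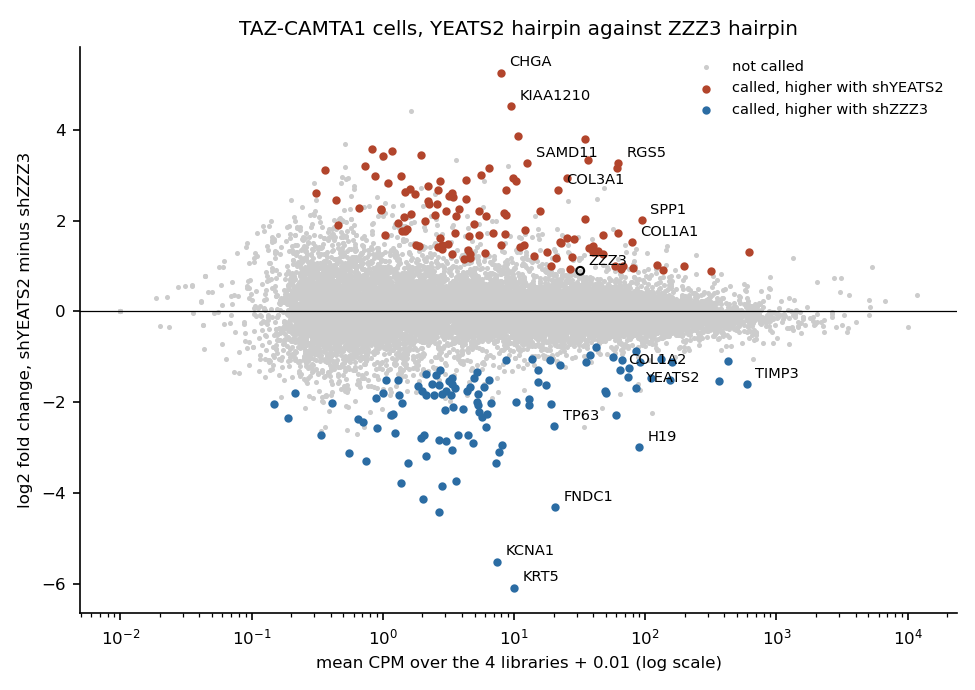
Log2 fold change (shYEATS2 minus shZZZ3, vertical) against the mean CPM of the 4 TC libraries (horizontal, log scale) for each of 18415 genes; coloured points are the 114 genes called higher with shYEATS2 and the 107 called higher with shZZZ3, grey points are not called, and the open circle is ZZZ3. The calls spread over both directions and a wide range of levels, and KRT5 and KCNA1 lie farthest below 0.

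The largest difference towards shZZZ3 was that of a keratin. KRT5, a keratin of basal epithelial cells, stood at 0.247 and 0.151 CPM with shYEATS2 and at 21.3 and 18.4 CPM with shZZZ3 (log2 fold change -6.08, SE 0.56, edgeR adjusted p = 0.00112). KRT15, another basal keratin, stood at 2.29 and 0.703 CPM against 14.1 and 13.6 CPM (-3.10, SE 0.47, edgeR adjusted p = 0.010). In both genes the shNT libraries lay with shYEATS2, at 0.534 and 0.239 CPM for KRT5 and at 1.26 and 0.956 CPM for KRT15.

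KRT75, a keratin of the hair follicle, was at 0.211 and 0.0502 CPM with shYEATS2 and 4.43 and 3.42 CPM with shZZZ3 (-4.13, SE 0.46, edgeR adjusted p = 0.00112). PADI3, which turns arginine into citrulline in hair proteins, was at 0.282 and 0.301 CPM against 5.44 and 5.29 CPM (-3.85, SE 0.65). The atypical cadherin FAT2 was at 1.41 and 1.0 CPM against 11.9 and 14.6 CPM (-3.35, SE 0.28, edgeR adjusted p = 0.000635). The 3 genes were therefore low but detected in both shYEATS2 libraries, and several-fold higher in both shZZZ3 libraries.

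TP63, the master transcription factor of basal epithelium, belongs to the same direction but was singled out after its values were seen, as were KRT17, S100A2 and CLCA2. It stood at 4.58 and 7.38 CPM with shYEATS2, 35.4 and 34 CPM with shZZZ3, and 5.19 and 6.26 CPM with shNT (log2 fold change -2.53, SE 0.27, edgeR adjusted p = 0.00112). KRT17 differed by -2.29 (SE 0.52), CLCA2 by -1.80 (SE 0.36) and the calcium-binding protein S100A2 by -1.76 (SE 0.34), all called. Of the 17 intermediate filament genes tested from the list of keratins and their relatives, 6 were called (35.3%, beside 1.2% of all genes) and all 6 were higher with shZZZ3. The list median was -0.45, which was -1.37 without shYEATS2 replicate 1 (5 called) and -0.18 without shYEATS2 replicate 2 (4 called). Of 7 generic epithelial markers tested, 0 were called by edgeR or DESeq2 and 0 had an unadjusted p under 0.05. CDH1 lay between 0.402 and 0.65 CPM in the 4 libraries, and KRT8 stood at 315 and 60.1 CPM with shYEATS2 against 170 and 144 CPM with shZZZ3. CDH1, the epithelial cadherin, was thus scarce under both hairpins.

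Neurofilament genes, which share the intermediate filament list, moved the same way. NEFL, the light chain, stood at 1.20 and 2.41 CPM with shYEATS2 and 15 and 13.6 CPM with shZZZ3 (-2.95, SE 0.39, edgeR adjusted p = 0.00398). NEFM, the medium chain, stood at 0.564 and 1.31 CPM against 6.90 and 6.09 CPM (-2.73, SE 0.43, edgeR adjusted p = 0.010). Neural markers outside the filaments were not called by edgeR or DESeq2 (0 of 3 tested, 0 at an unadjusted p under 0.05), and STMN2 and ELAVL4 were at 0 counts in the 4 libraries.

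Channels and receptors of excitable cells gave some of the largest differences. KCNA1, a voltage-gated potassium channel, stood at 0.141 and 0.352 CPM with shYEATS2 and 14.4 and 14.9 CPM with shZZZ3 (-5.51, SE 0.49, edgeR adjusted p = 0.000635). NTRK2, the receptor for brain-derived neurotrophic factor, stood at 0.282 and 0 CPM against 4.83 and 5.56 CPM (-4.41, SE 0.64, edgeR adjusted p = 0.00398). The calcium channel CACNA1H went the other way, at 2.40 and 2.81 CPM with shYEATS2 and 0.365 and 0.321 CPM with shZZZ3 (2.63, SE 0.37, edgeR adjusted p = 0.00331). Of 22 channels tested 3 were called (13.6%, beside 1.2% of all genes), 1 higher with shYEATS2 and 2 with shZZZ3. Of all 22, 12 lay above 0 and 10 below, with a median of 0.15.

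The remaining leading genes higher with shZZZ3 had varied roles. FNDC1, a secreted protein with fibronectin type III domains, stood at 2.57 and 1.10 CPM with shYEATS2 and 35 and 43.1 CPM with shZZZ3 (-4.31, SE 0.45, edgeR adjusted p = 0.00112). The transcription factor GATA3 stood at 0.0352 and 0.201 CPM against 1.95 and 3.31 CPM (-3.79, SE 0.58, edgeR adjusted p = 0.00331). ITIH5, a hyaluronan-binding protein, stood at 1.23 and 0.904 CPM against 8.24 and 9.09 CPM (-2.90, SE 0.30). CSMD2 (-3.74), TREM2, a receptor best known from myeloid cells (-3.34), MME, the membrane protease neprilysin (-3.19) and TRIML1 (-3.04; -4.67 without shYEATS2 replicate 1) completed the 15 largest. CA9, a carbonic anhydrase known as a target of the hypoxia response, was the 1 called of 26 hypoxia and glycolysis genes (-2.86, SE 0.41). That is 3.85% of the list, beside 1.2% of all genes. Of the 26 genes, 20 lay below 0 (median -0.38) and 11 had an unadjusted p under 0.05. DESeq2 called 5 of them, and edgeR with the GC correction called 4. The median was -0.64 without shYEATS2 replicate 1 and -0.28 without shYEATS2 replicate 2. PRRX1, a homeobox factor of mesenchyme, was also higher with shZZZ3 (-2.82, SE 0.55).

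The largest difference towards shYEATS2 was that of CHGA. CHGA, chromogranin A of dense-core granules, stood at 27.8 and 3.47 CPM with shYEATS2 and 0.284 and 0.374 CPM with shZZZ3 (5.26, SE 0.86, edgeR adjusted p = 0.0110). The prohormone convertase PCSK1 stood at 46.5 and 86.2 CPM against 7.15 and 5.83 CPM (3.33, SE 0.31, edgeR adjusted p = 0.00112), and PCSK2 at 4.05 and 3.57 CPM against 0.731 and 0.588 CPM (2.37, SE 0.50, edgeR adjusted p = 0.0346). All shYEATS2 libraries lay above both shZZZ3 libraries in the 3 genes, but CHGA differed several-fold within the shYEATS2 pair. The control pair split them: PCSK1 was as high with shNT (60.2 and 84 CPM), while CHGA (0.420 and 0.382 CPM) and PCSK2 (0 and 0.143 CPM) stood near the shZZZ3 level or below it.

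Several other leading genes of this direction rested on 1 shYEATS2 library more than the other. Replicate 1 carried KIAA1210 (34 and 2.66 CPM), BCAN, the brain proteoglycan brevican (36.7 and 3.87 CPM), the aldo-keto reductase AKR1B10 (187 and 31.7 CPM) and RGS5, a regulator of G protein signalling (182 and 43.9 CPM). Replicate 2 carried LAMP5 (19 and 111 CPM) and the guidance protein SEMA5B (5.11 and 18.2 CPM). The shZZZ3 levels of these 6 genes lay below both, at most 13.1 CPM.

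Leaving out the higher library changed their sizes by over 1.5 times. Without replicate 1 of shYEATS2 the log2 fold change of CHGA went from 5.26 to 3.11, that of KIAA1210 from 4.51 to 1.77, that of BCAN from 3.86 to 1.5, that of AKR1B10 from 3.15 to 1.37 and that of RGS5 from 3.27 to 1.92. KIAA1210 (edgeR adjusted p = 0.0522) and BCAN (edgeR adjusted p = 0.0748) then missed the threshold, as did CHI3L1, a secreted chitinase-like protein, which went from 3.54 to 2.28 (edgeR adjusted p = 0.0729). Without replicate 2, LAMP5 went from 3.80 to 2.04 and SEMA5B from 3.15 to 1.99, both still called. Over all calls, the shYEATS2 libraries were more than 2-fold apart (CPM + 0.1) for 26 of the 114 genes higher with shYEATS2 and for 19 of the 107 lower, against 9.19% of all tested genes.

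SAMD11, NR0B1 and SCTR were called whichever of the 4 libraries was left out. SAMD11 stood at 24.6 and 21.2 CPM with shYEATS2 and 2.23 and 2.41 CPM with shZZZ3 (3.26, SE 0.33, edgeR adjusted p = 0.00112). The orphan nuclear receptor NR0B1 stood at 12.2 and 7.99 CPM against 1.30 and 1.07 CPM (2.99, SE 0.32, edgeR adjusted p = 0.00112). SCTR, the receptor for secretin, stood at 2.64 and 4.67 CPM against 0.244 and 0.267 CPM (3.44, SE 0.40, edgeR adjusted p = 0.00112). Their lowest shYEATS2 library was several-fold above the highest shZZZ3 library.

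A few genes were close to the floor with shZZZ3, where 3 counts correspond to at most 0.160 CPM in a TC library. The growth factor IGF1 stood at 1.45 and 2.36 CPM with shYEATS2 and 0.0406 and 0.160 CPM with shZZZ3, the latter from 4 counts in all. The renal dipeptidase DPEP1 had 66 counts in the shYEATS2 pair and 3 in the shZZZ3 pair, a ratio of 19.7 after scaling (95% exact interval of counting error 6.47 to 98.2). The atypical cadherin FAT3 had 69 and 2 counts, a ratio of 31 (8.25 to 261). The sizes for these genes are therefore known only broadly.

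**Figure D2:**
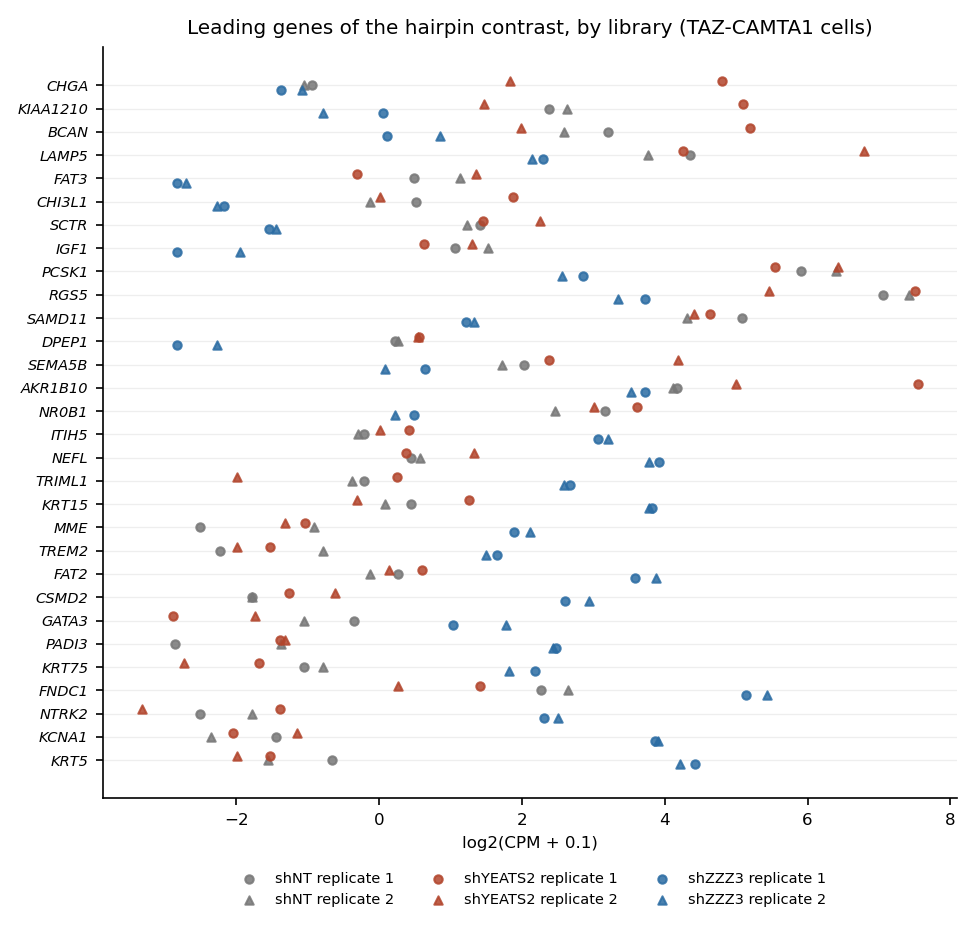
Level of the 15 called protein-coding genes with the largest log2 fold change in each direction, as log2(CPM + 0.1) in each TC library; colours give the hairpin and the symbol (circle or triangle) gives replicate 1 or 2. For each gene both shZZZ3 points lie on the same side of both shYEATS2 points, shNT points mostly lie with shYEATS2, and the shYEATS2 points of CHGA, KIAA1210, BCAN, LAMP5, RGS5 and AKR1B10 lie far from each other.

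Extracellular matrix genes were called in both directions. Collagens form the fibres and sheets of the matrix, and 7 of 25 tested were called (28%, beside 1.2% of all genes), 4 of them higher with shYEATS2 and 3 higher with shZZZ3. The 2 chains of type I collagen went opposite ways. COL1A1, the α1 chain, stood at 91.1 and 144 CPM with shYEATS2 and 40.2 and 41.6 CPM with shZZZ3 (1.52, SE 0.25, edgeR adjusted p = 0.0152). COL1A2, the α2 chain, stood at 41.5 and 32.6 CPM against 85.2 and 97.2 CPM (-1.29, SE 0.19, edgeR adjusted p = 0.00788). The control pair held 66.5 and 52.5 CPM of COL1A1 and 85.5 and 81.9 CPM of COL1A2, so both α2 libraries of shYEATS2 lay below the other 4.

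COL3A1, the type III collagen chain, was the collagen of the list with the largest difference, at 26.3 and 48.9 CPM with shYEATS2 and 5.24 and 6.41 CPM with shZZZ3 (2.67, SE 0.29, edgeR adjusted p = 0.00152). COL14A1 (1.53) and the basement membrane chain COL4A2 (1.0, edgeR adjusted p = 0.0460) moved with it. COL5A3 (-1.62) and COL6A3, a chain of the beaded type VI filament (-1.5), were higher with shZZZ3. COL2A1, the cartilage collagen, was not on the list and was named after its values were seen, at 18.9 and 70.1 CPM against 5.28 and 6.15 CPM (2.94, SE 0.47; 1.73 without shYEATS2 replicate 2).

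Other matrix groups were also mixed. Of 18 laminin and basement membrane genes, LAMA1 and LAMA2 were called (11.1%, beside 1.2% of all genes) and both were higher with shZZZ3. LAMA1 stood at 28.1 and 16.9 CPM with shYEATS2, 62.8 and 89.6 CPM with shZZZ3, and 9.73 and 11.6 CPM with shNT (-1.75, SE 0.26, edgeR adjusted p = 0.010). Both knock-down pairs thus lay above the control for this gene, and shZZZ3 lay above shYEATS2.

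SPP1, osteopontin, went the other way, at 112 and 191 CPM with shYEATS2, 39.7 and 35.2 CPM with shZZZ3, and 159 and 184 CPM with shNT (2.01, SE 0.25, edgeR adjusted p = 0.00307). TIMP3, an inhibitor of matrix metalloproteases, was the most abundant called gene of the matrix lists that was higher with shZZZ3, at 894 and 902 CPM against 287 and 302 CPM with shYEATS2 (-1.61, SE 0.18, edgeR adjusted p = 0.00172). PLAT, tissue plasminogen activator, was higher with shYEATS2, at 1161 and 608 CPM against 348 and 369 CPM (1.3, SE 0.26, edgeR adjusted p = 0.040), and without shYEATS2 replicate 1 it gave 0.77 (edgeR adjusted p = 0.0935). Of the 32 matrix glycoproteins and proteoglycans, 5 were called (15.6%, beside 1.2% of all genes). Of these, 2 were higher with shYEATS2 (SPP1 and SPARCL1) and 3 higher with shZZZ3 (ITIH5, SMOC1 and THBS2). The study's other matrix genes of interest, GPC4 (-0.58, SE 0.22, edgeR adjusted p = 0.344) and FBLN5 (-0.20, SE 0.27, edgeR adjusted p = 0.959), did not pass the test.

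**Figure D3:**
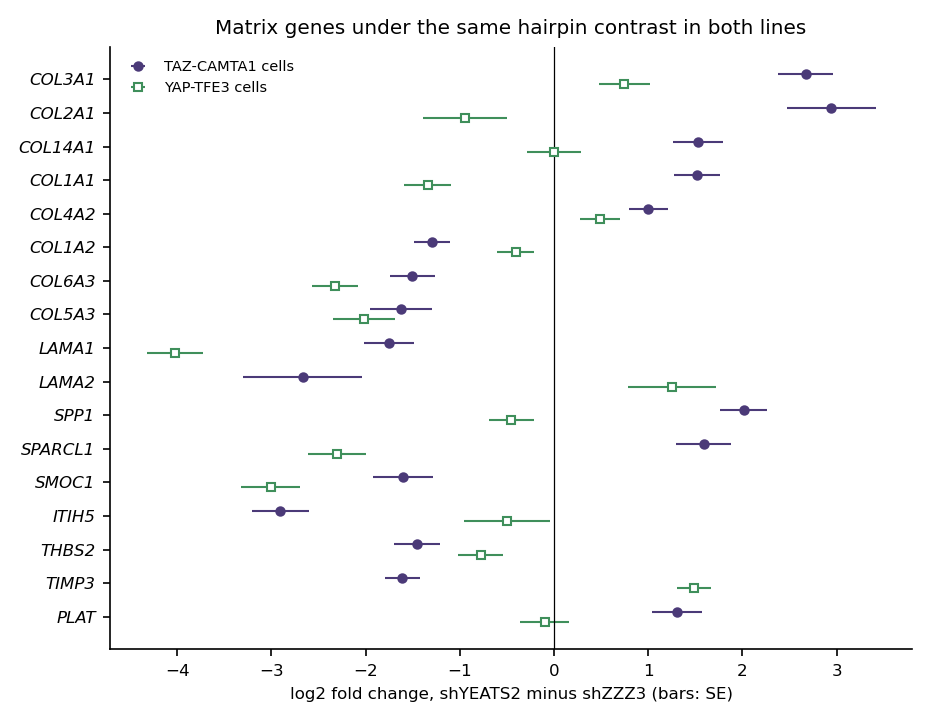
Log2 fold change (shYEATS2 minus shZZZ3) with its SE for 17 matrix genes in TC cells (filled circles) and YT cells (open squares). COL1A1 and COL1A2 lie on opposite sides of 0 in TC cells. Among the genes below 0 in both lines are COL5A3, COL6A3, LAMA1 and SMOC1. Those that change sides between the lines include TIMP3, SPARCL1, COL1A1, COL2A1, SPP1 and LAMA2.

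Signalling lists had calls in both directions. Of 28 genes of the TGF-beta and BMP list 4 were called (14.3%, beside 1.2% of all genes), and ID2, a direct target of BMP signals, stood at 43.1 and 33.4 CPM with shYEATS2 and 14.2 and 10.7 CPM with shZZZ3 (1.61, SE 0.22, edgeR adjusted p = 0.00473). The inhibitor SMAD7 (1.22) was also higher with shYEATS2, and the ligand BMP6 was higher with shZZZ3 (-1.08, edgeR adjusted p = 0.0478). Of 42 growth factors and receptors 4 were called (9.52%), of which IGF1 and FLT4 were higher with shYEATS2, and NTRK2 and the ligand NRG1 (-0.87) with shZZZ3. PHLDA1 (-1.12) was the 1 called of 26 ERK feedback and immediate early genes (3.85%), and LEF1 (-1.34) the 1 called of 33 WNT and NOTCH genes (3.03%). CD44, the hyaluronan receptor, stood at 250 and 297 CPM with shYEATS2 and 577 and 595 CPM with shZZZ3 (-1.10, SE 0.18, edgeR adjusted p = 0.0156) and was the 1 called of 19 integrins and adhesion receptors.

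Of 28 genes known to respond to YAP and TAZ 0 were called by edgeR in the main fit, where 6 had an unadjusted p under 0.05. With the GC correction edgeR called 5 of them, and with the replicate number as a block 2. DESeq2 called 3. The list median in the main fit was -0.23 (-0.33 and -0.14 without shYEATS2 replicate 1 and 2). CCN1, a secreted matricellular protein and classic YAP and TAZ target, stood at 75.7 and 41.8 CPM with shYEATS2 and 123 and 113 CPM with shZZZ3 (-1.0, SE 0.26, edgeR adjusted p = 0.104). CCN1 was called in 5 of 11 other settings, among them the GC correction (edgeR adjusted p = 0.0382), and gave -1.48 without shYEATS2 replicate 1 (edgeR adjusted p = 0.0152) and -0.63 without shYEATS2 replicate 2 (edgeR adjusted p = 0.351). CCN2 gave -0.45 (SE 0.22). WWTR1, the gene of TAZ, stood at 161 and 194 CPM against 189 and 175 CPM (-0.04, SE 0.20). CAMTA1 stood at 110 and 78.2 CPM against 154 and 137 CPM (-0.62, SE 0.21, edgeR adjusted p = 0.250). With shNT it stood at 72.4 and 60.1 CPM, and shZZZ3 minus shNT gave 1.13 (SE 0.21, edgeR adjusted p = 0.0234). In the YT libraries CAMTA1 lay between 23.2 and 30.4 CPM. Counts over whole genes do not separate the fusion transcript from the endogenous ones, so the level of the fusion was not measured.

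Proliferation genes lay mostly below 0, and none passed the edgeR test in the main fit. Of 25 mitosis genes 0 were called by edgeR, 7 had an unadjusted p under 0.05, and by DESeq2 0 were called, yet all 25 lay below 0, between -0.88 and -0.30, with a median of -0.51. Of 33 DNA replication and S-phase genes 0 were called by edgeR (1 by DESeq2, 14 at an unadjusted p under 0.05), 32 lay below 0 and the median was -0.50. Without replicate 2 of shYEATS2 the medians were -0.22 and -0.20, and without replicate 1 they were -0.88 and -0.91. With the GC correction edgeR called 1 of the mitosis genes and 5 of the replication genes. With the replicate number as a block as well, these counts were 3 and 6. Cholesterol and lipid synthesis genes gave a median of -0.37 (23 of 26 below 0, 0 called by edgeR, 1 by DESeq2, 6 at an unadjusted p under 0.05), which was -0.12 without replicate 2. With the GC correction edgeR called 5 of them. Lists with 0 calls by edgeR and medians nearer to 0 were HOX genes (0.09, 5 at an unadjusted p under 0.05), p53 targets (-0.08, 2), cytosolic ribosomal proteins (-0.13, 0), interferon-induced genes (0.24, 3), chemokines and cytokines (0.04, 4), adipogenic regulators (0.18, 4) and genes of the integrated stress response (0.21, 2). DESeq2 called 1 interferon-induced gene, 1 adipogenic regulator and 0 of the other lists in this group. With the GC correction edgeR called 2 adipogenic regulators, 1 HOX gene, 1 p53 target and 0 of the other lists in this group. Several of these medians changed sign with 1 library. Without shYEATS2 replicate 1 and without shYEATS2 replicate 2 they were -0.13 and 0.43 for interferon-induced genes, 0.59 and -0.12 for the integrated stress response, 0.19 and -0.15 for HOX genes, and 0.01 and -0.21 for chemokines and cytokines.

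**Figure D4:**
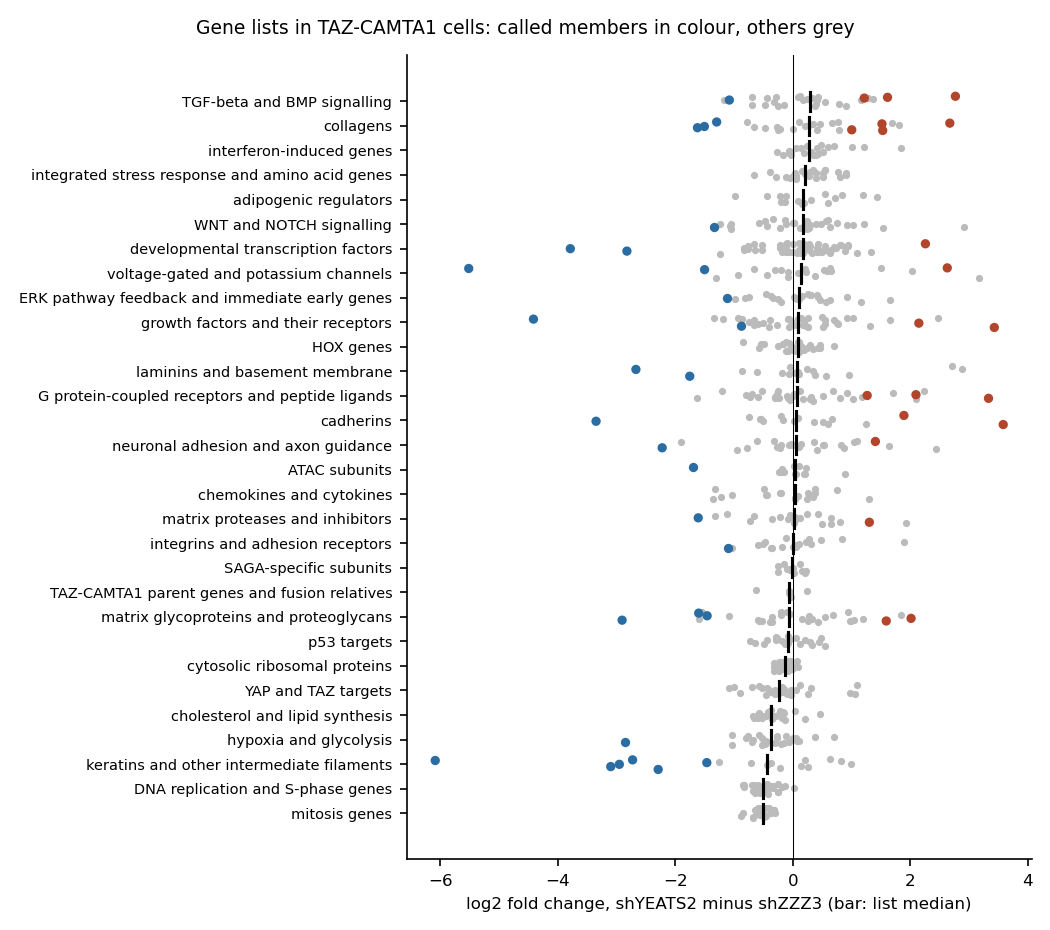
Log2 fold change (shYEATS2 minus shZZZ3) of each tested member of 30 gene lists in TC cells, with the list median as a black bar; red points are called higher with shYEATS2, blue points called higher with shZZZ3, and grey points not called. Collagens have called members on both sides, called keratins lie on the shZZZ3 side, and the mitosis genes form a narrow cloud below 0 without a call.

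Several endothelial markers differed strongly between the 2 shYEATS2 libraries. TAZ-CAMTA1 tumours are endothelial, and VEGF receptor 2 (KDR) stood at 12.8 and 133 CPM with shYEATS2 and 13.2 and 12.8 CPM with shZZZ3. VE-cadherin (CDH5) stood at 27.6 and 91.4 CPM against 39.8 and 35.3 CPM, and PECAM1 at 4.90 and 17.1 CPM against 2.80 and 2.57 CPM. Replicate 2 of shYEATS2 was the high library in each of these 3. PECAM1 was nonetheless higher in both shYEATS2 libraries than in either shZZZ3 library. The same held for TEK (12.2 and 24.2 CPM against 7.19 and 9.19 CPM) and VWF (1.55 and 3.01 CPM against 0.69 and 1.12 CPM). ERG, an endothelial transcription factor, went the other way, at 19.5 and 6.53 CPM with shYEATS2 and 27.1 and 26.2 CPM with shZZZ3, and 2 of the 8 markers had a log2 fold change below 0, down to -1.02. The 8 markers summed to 122 and 386 CPM with shYEATS2 and to 187 and 188 CPM with shZZZ3, and none was at 0. By edgeR 0 of the 8 markers were called (5 at an unadjusted p under 0.05, 2 called with the GC correction, 2 called by DESeq2). Their median log2 fold change was 1.13, and 0.17 without that replicate. The receptors FLT4 (2.15) and APLNR (2.90), the vesicle protein PLVAP (2.51) and P-selectin, SELP (2.12), which are known from endothelium and of which APLNR, PLVAP and SELP were named after their values were seen, were called higher with shYEATS2. APLNR stood at 4.05 and 11.2 CPM against 1.06 and 0.802 CPM and was called without either library, FLT4 (1.83 and 3.62 CPM against 0.406 and 0.695 CPM) gave 1.62 with an edgeR adjusted p of 0.154 without replicate 2, PLVAP (2.85 and 8.89 CPM) gave 1.52 with an edgeR adjusted p of 0.0506 without it, and SELP was higher in replicate 1 (18.9 and 9.49 CPM against 3.57 and 2.83 CPM). What part the marker difference between the 2 libraries had in these calls was not tested.

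Non-coding genes followed both directions. LINC02593 stood at 19.1 and 17.4 CPM with shYEATS2 and 2.40 and 2.46 CPM with shZZZ3 (2.87, SE 0.28, edgeR adjusted p = 0.00112), and the pseudogene NMRAL2P at 11 and 6.93 CPM against 1.66 and 2.08 CPM (2.22, SE 0.38). CLMAT3 had 3 counts in the shYEATS2 pair and 61 in the shZZZ3 pair, a ratio of 22.7 (95% exact interval of counting error 7.4 to 113), and LINC01582 had 2 and 44, a ratio of 24.5 (6.39 to 209). The imprinted H19, named after its values were seen, was the most abundant of them at 28.4 and 11.8 CPM with shYEATS2 and 168 and 152 CPM with shZZZ3 (-2.99, SE 0.35, edgeR adjusted p = 0.00250).

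Called genes had a called neighbour of the same direction on the chromosome more often than genes that were not called. Of the 220 called genes with a position in the annotation, 51 (23.2%) had another called gene of the same direction within 500 kb between gene starts, and 10 (4.55%) had one of the opposite direction. Among tested genes that were not called, 5.54% had a called gene of the same sign in that distance. For a called gene of either direction the share was 10.1% of genes not called, against 26.4% of called ones. The neighbours formed 23 groups of 2 or 3 genes, with no more than 3 in any.

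SAMD11 (chr1:923923-944575) lay beside LINC02593 (chr1:916865-921016), on the other strand. F5, coagulation factor V (2.98, chr1:169511951-169586588), lay beside SELP (2.12, chr1:169588849-169630193). RGS5 (3.27) lay beside RGS4 (1.18), and the transcription factor SOX8 (2.26) 171 kb from CACNA1H (2.63). On the shZZZ3 side, KRT80 (-1.46), KRT75 (-4.13) and KRT5 (-6.08) lay in the type II keratin cluster on chr12:52168996-52520530, KRT15 and KRT17 in the type I cluster on chromosome 17, and NEFM beside NEFL. The coordinates are GRCh38. KRT80 stood at 2.82 and 2.31 CPM against 7.19 and 7.32 CPM, a far smaller difference than that of KRT5 in the same cluster. How the counting split reads between keratin paralogs is not given, so the exact share of each is uncertain.

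The promoters of the leading genes were searched for the TEAD core motif, since the study reports that the fusion depends on TEAD proteins. The study found TAZ-CAMTA1 mostly at distal intergenic sequences, which a search of promoters does not cover. It also attributes part of the binding to the CAMTA1 end. The motif was GGAATG on either strand (CATTCC when read on the gene's strand), in the 250 bases before the start in RefSeq (GRCh38.p14), where 11.9% of 27305 promoters held it. A promoter was found for 71.0% of the 221 called genes, too few for a share over the whole set. Of the 30 leading genes, 24 had a promoter in the table and 6 of these held the motif. NTRK2, KRT75, GATA3 and MME held it among those higher with shZZZ3, and RGS5 and KIAA1210 among those higher with shYEATS2. The windows are given on the gene's strand, with the motif in capitals and 10 bases on either side.
NTRK2: taggtggcccGGAATGggggcggtga
KRT75: ggatgcccagGGAATGccatcagaag
GATA3: gggtgaaattCATTCCctcgctgttt
MME: agcccttttgGGAATGgtgagatggg
RGS5: agtcccgcccCATTCCgccaagccca
KIAA1210, first window: cgggcggcgaGGAATGacccgggggt
KIAA1210, second window: cttgcaacatCATTCCcctgtgcacc

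They lie at chr9:84669121-84669146 (plus strand, NTRK2), chr12:52434443-52434468 (minus strand, KRT75), chr10:8045208-8045233 (plus, GATA3), chr3:155079443-155079468 (plus, MME), chr1:163321925-163321950 (minus, RGS5), and chrX:119150793-119150818 and chrX:119150733-119150758 (minus, KIAA1210). The motif thus occurred on both sides of the contrast, and a match of 6 letters describes the window and no binding. For MME the start used lay inside the gene as GENCODE places it (chr3:155024124-155183704).

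The control pair was not part of the contrast, and it was set beside it to see which hairpin stood apart. For 178 of the 221 called genes (80.5%) the mean shNT level was nearer, on the log2(CPM + 0.1) scale, to shYEATS2 than to shZZZ3, against 60.4% of all tested genes. Taken alone, shNT replicate 1 gave 81.4% (54.2% of all genes) and replicate 2 gave 76.9% (57.3%). The share was 96 of 107 for genes higher with shZZZ3 and 82 of 114 for genes higher with shYEATS2. The mean shNT level lay between the 2 knock-downs for 132 of the called genes, above both for 36 and below both for 52. COL1A2, CHGA, PCSK2, AKR1B10 and EDN3 were among the exceptions, with shNT nearer to shZZZ3. EDN3, the peptide endothelin 3, stood at 6.73 and 13.4 CPM with shYEATS2, 2.40 and 2.14 CPM with shZZZ3, and 1.56 and 1.15 CPM with shNT (2.10, SE 0.34, edgeR adjusted p = 0.0132).

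The same hairpin contrast in YT cells uses 4 other libraries, and it was compared to see in which fusion line each difference was seen. In YT cells YEATS2 stood at 33.9 and 38.5 CPM with shYEATS2 and 138 and 134 CPM with shZZZ3 (-1.91, SE 0.18, edgeR adjusted p = 0.000159). ZZZ3 stood at 31.4 and 30.7 CPM with shYEATS2 and at 12.6 and 29.6 CPM with shZZZ3 (0.56, SE 0.42, edgeR adjusted p = 0.504). A fall in ZZZ3 RNA was thus seen in shZZZ3 replicate 1 but hardly in replicate 2, and it was not called. In YT cells 1327 of the tested genes (7.21%) were called. Of the 221 genes called in TC cells, 95 were called there too, which is 43.0% of the TC calls and 7.16% of the YT calls. Of these, 64 had the same direction and 31 the opposite. Over all 221 genes 129 (58.4%) had the same sign in both lines, against 52.5% of all tested genes. Across the 13258 genes averaging 50 counts or more, which are not independent replicates, the log2 fold changes of the lines correlated weakly (Pearson r 0.17, Spearman rho 0.12). Their robust spread over these genes was 0.26 in TC cells and 0.42 in YT cells.

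Several named genes kept their direction in both lines. KCNA1 differed by -5.51 in TC and -6.43 in YT cells (edgeR adjusted p in YT 0.00010), FNDC1 by -4.31 and -6.08, KRT5 by -6.08 and -3.84, NEFL by -2.95 and -3.64, COL6A3 by -1.5 and -2.32, and NR0B1 by 2.99 and 4.68. All 6 were called in each line, and the difference between the lines (the interaction of hairpin and fusion) passed the test for none of the 6. H19 and LAMA1 were higher with shZZZ3 in both lines and more so in YT cells, by -6.09 and -4.02, and their interactions were called (3.10 for H19, edgeR adjusted p = 0.00778, and 2.27 for LAMA1, edgeR adjusted p = 0.00859).

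For 99 of the 221 genes (44.8%, beside 3.1% of all tested genes) the interaction was called. The TC difference that selected these genes is part of the interaction, so a share above that of all genes was built in. The largest interactions were those of CHGA, SEMA5B and PCSK2, which were higher with shYEATS2 in TC cells and higher with shZZZ3 in YT cells. CHGA differed by 5.26 in TC and -4.72 in YT (interaction 9.97, edgeR adjusted p = 0.00131), SEMA5B by 3.15 and -3.25 (6.40, edgeR adjusted p = 0.00228), and PCSK2 by 2.37 and -3.85 (6.22, edgeR adjusted p = 0.00173). In the other direction KRT15 differed by -3.10 in TC and 1.85 in YT (interaction -4.95, edgeR adjusted p = 0.00324), C16orf54 by -2.03 and 2.29, and GATA3 by -3.79 and 0.49. TIMP3 differed by -1.61 in TC and 1.49 in YT (interaction -3.10, edgeR adjusted p = 0.000605) and CD44 by -1.10 and 1.07 (interaction -2.17, edgeR adjusted p = 0.00173), and all 4 direct differences were called. COL1A1 was likewise higher with shYEATS2 in TC and lower in YT cells, by 1.52 and -1.34 (interaction 2.86, edgeR adjusted p = 0.00228).

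**Figure D5:**
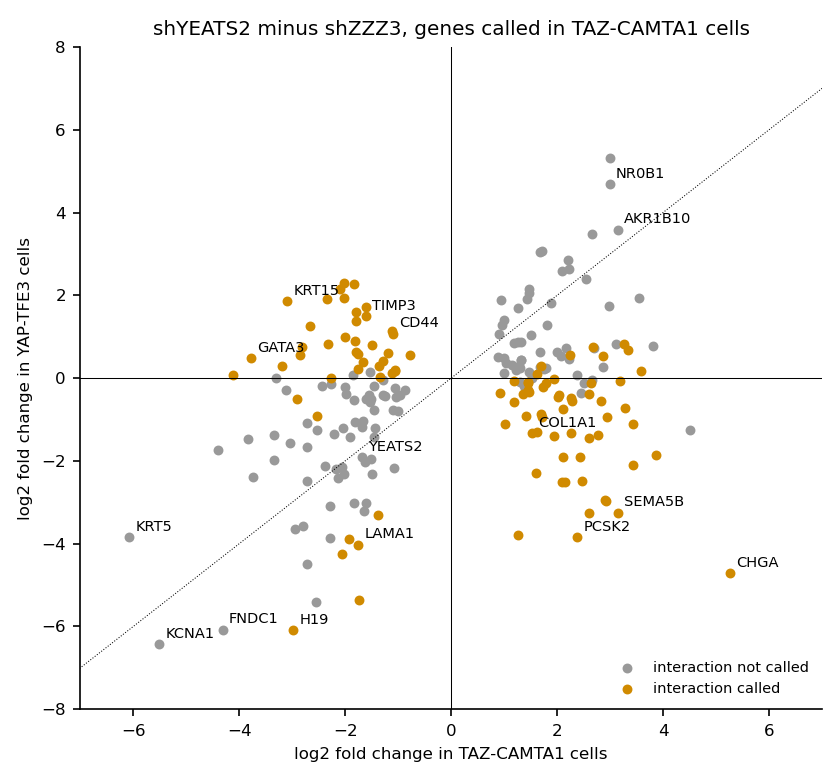
Log2 fold change (shYEATS2 minus shZZZ3) in YT cells (vertical) against that in TC cells (horizontal) for the 221 genes called in TC cells; orange points have a called interaction (99 genes), grey points do not, and the dotted line marks equal values. KCNA1, FNDC1 and NR0B1 lie in the quadrants of equal sign, whereas CHGA, SEMA5B, PCSK2, TIMP3 and KRT15 lie in those of opposite sign.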

How the data were processed

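The authors sequenced stranded, poly(A)-selected libraries (TruSeq), demultiplexed with bcl2fastq per the labels, and ran bcbio-nextgen with HISAT2 on hg38. Raw counts for 58735 Ensembl genes were deposited by the authors (25748 genes were at 0 in each library), and the combined and single tables of 12 libraries agree in every cell. Whether the counts came from alignments or from Salmon, and how strand was used, is not given in the sources used here.

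Groups came from the sample titles. The 18415 genes averaging 5 counts or more were fitted over 12 libraries and 6 groups with edgeR 4.0.16 in R 4.3.3 (TMM scaling, robust quasi-likelihood, prior count 2, 6 residual degrees of freedom), tested two-sided and adjusted by Benjamini-Hochberg over all genes, with 0.05 as the threshold. The procedure was tested on simulated data. Levels are TMM-scaled CPM, whose total of 18654191 to 28038851 counts puts 3 counts at 0.160 CPM or less; intervals cover counting error only. Annotation was GENCODE 44 (99.1% of IDs found). Alternatives were DESeq2 1.42.0, other scalings, filters and sample sets, a GC correction, a replicate block and leaving out each library.

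Named genes were the ATAC subunits, the 15 called protein-coding genes with the largest change in each direction (at least 1 CPM in the higher group, pairs not overlapping), up to 4 called members of each list, 8 genes of the study's interest, the 3 largest interactions and the 2 largest non-coding changes in each direction. Members and lists were chosen with earlier results of these data known. Further genes were named after their values were seen, and not all are marked where they appear. Those not marked include CXCL14, COL6A3, COL4A2, THBS2, KRT80, RGS4 and F5. Counts of named genes refer to all 103 genes selected in these ways, not all of which are mentioned in the text. A few genes are not reported here.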

Additional observations from a re-analysis of the deposited data

Results flagged for a closer look

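For 45 of the 103 genes selected for naming, the shYEATS2 minus shZZZ3 difference in TC cells was not the same as in YT cells. This was judged by the interaction test of edgeR (Benjamini-Hochberg adjusted p under 0.05 over all tested genes, n = 2 libraries in each of 4 groups). Of all tested genes 3.1% passed this test, but many of the named genes were chosen for a large TC difference or a large interaction, so their share is not set against it. The values in parentheses are the TC difference minus the YT difference on the log2 scale, and both differences come from separate libraries.

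Epithelial and filament genes gave negative values, meaning that their TC difference lay further towards shZZZ3: KRT15 (-4.95), KRT75 (-4.19), CLCA2 (-3.18), S100A2 (-1.98) and TP63 (-1.60). The same sign was seen for the transcription factors GATA3 (-4.27), PRRX1 (-3.58) and LEF1 (-1.37), for the matrix and adhesion genes LAMA2 (-3.92), TIMP3 (-3.10), ITIH5 (-2.41), CD44 (-2.17) and CCN1 (-1.84), and for C16orf54 (-4.32), MME (-3.49), CA9 (-3.41), CACNA2D3 (-2.30) and PHLDA1 (-2.25). CCN1 was not called in TC cells on its own.

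Positive values were found for genes of secretory granules and peptide signalling, CHGA (9.97), PCSK2 (6.22), PCSK1 (2.65), SCTR (5.53), APLNR (5.84) and IGF1 (4.55). Matrix genes with a positive value were COL2A1 (3.89), COL1A1 (2.86), COL3A1 (1.92), SPARCL1 (3.90), SPP1 (2.47), LAMA1 (2.27), BCAN (5.72) and GPC4 (3.04), of which GPC4 was not called in TC cells on its own and was higher with shZZZ3 in YT cells by -3.62. The signalling and guidance genes were SEMA5B (6.40), FLT4 (4.67), RGS5 (4.0), UNC5B (2.33), ID2 (1.53) and SOX8 (3.59). The rest were CACNA1H (2.75), FAT3 (3.40), DPEP1 (3.26), SELP (2.87), SAMD11 (2.45), LINC02593 (2.33) and H19 (3.10).

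The YT shZZZ3 libraries differed from each other with GC content (r of 0.70 over 13258 genes). With the GC correction 1364 interactions were called, which included 566 of the 571 called without it, and all 45 given above were called with the same sign.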

How the results depend on the processing

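The direct contrast in TC cells gave 221 calls (51.6% higher with shYEATS2). It gave 751 calls without a filter on low counts (467 higher and 284 lower with shYEATS2), 492 with DESeq2, 662 with a GC correction, 923 with a GC correction and a replicate block, and 548 without the TC shNT and YT shZZZ3 pairs, a choice made after seeing the data. It gave 42 calls with only the 4 libraries of the contrast (11 higher and 31 lower) and 57 with only the 6 TC libraries (21 higher and 36 lower). Leaving out each library gave 29 to 400 calls; without shYEATS2 replicate 2, 179 were higher and 105 lower, without shZZZ3 replicate 1, 7 and 24, and without shZZZ3 replicate 2, 8 and 21. The YT contrast (1327) gave 2322 calls without the filter, 2962 with the GC correction and 363 to 1178 on leaving out each library. The interaction (571) gave 1267 calls without the filter, 363 at a mean of 50 counts or more, 907 with DESeq2, 1364 with the GC correction and 112 to 653 on leaving out each library. Scaling by size factors or by library totals kept each count within 1.5 times. The cause of these changes was not tested, except that fewer libraries leave fewer residual degrees of freedom.

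The replicate number as a block gave 331 calls in TC cells, 220 of them shared with the fit without it, 1654 in YT cells and 747 for the interaction. Same-numbered libraries deviated together weakly (r of 0.18 in TC and 0.031 in YT cells), and no source says that a number marks a shared culture or day, so the pairing rests on a number alone.

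Of 1614 values of named genes under the alternatives, 1289 kept direction and side of the threshold, 304 lost the call, 11 gained it and 10 changed sign. The sign changes were all in genes not called. WWTR1 gave 0.011 with library totals and -0.17 to 0.10 on leaving out each library. The same ranges were -0.70 to 0.19 for FBLN5, -0.18 to 0.23 for WDR5, -0.073 to 0.17 for DR1, -0.038 to 0.15 for KAT2A, -0.15 to 0.33 for SGF29 and -0.14 to 0.46 for KAT2B. With 2 libraries in each group, smaller differences than those called may go undetected.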
